A study of Rattus norvegicus with 4 samples.

Results

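Cytochrome P450 genes were followed in liver cells of Lewis rats, an inbred strain, across 4 single-cell RNA libraries. A gene was a member where its symbol was Cyp followed by a family number, a subfamily letter and a gene number, and where it had at least 20 UMIs (unique molecular identifiers, each standing for 1 captured transcript) over the 4 libraries. Of 22118 symbols, 69 matched and 55 were members. The 55 comprised 23 genes of family 2, 14 of family 4 and 3 each of families 1 and 3, and the other families held 1 or 2 each. Of the 14 matching symbols left out, 9 were at 0 UMIs and 5 had from 1 (Cyp19a1) to 10 (Cyp21a1). Just inside the limit lay Cyp2b2 with 29 UMIs, Cyp1b1 with 35 and Cyp17a1 with 38.

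The untreated liver is labelled Nave and is called naive here. CS is a liver held in cold storage at 4 °C for 4 h, and NEVLP2 is a liver perfused outside the body at 37 °C for 4 h. NEVLPcty is a liver perfused likewise, the cytokines IL-10 and TGF-β being added. The perfusate was built on William's E medium and contained pyruvate, glutamine, human albumin, heparin, papaverine, insulin, hydrocortisone, antibiotics and packed red cells of Lewis rats, per the labels. Each group is 1 library, so differences between treatment, animal and preparation cannot be told apart. No sex, age, or method of cell isolation is given in the sources used here.

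Cytochrome P450 enzymes are haem proteins that insert an oxygen atom into their substrates, with electrons passed on from a reductase. Families 1 to 3 oxidise drugs, toxins and steroids, and family 4 hydroxylates the end of fatty acid chains. Families 7, 8 and 39, and Cyp27a1 of family 27, make bile acids from cholesterol. Family 26 breaks down retinoic acid, the hormone form of vitamin A. In the liver lobule, blood flows from the portal vein to the central vein, and hepatocytes around the central vein are known for carrying many of the drug-oxidising members.

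Libraries held from 25609611 to 72271060 UMIs and from 3920 to 11763 barcodes, of which 3300 to 11616 passed the filters. Hepatocyte barcodes had at least 3 of the markers Serpinc1, Gc, Ttr and Apoc3 and no Ptprc. They numbered 1542 in naive and 3259 in CS, against 4224 in NEVLP2 and 2552 in NEVLPcty. Their median depth was 1869.5, 1825, 1628 and 2924.5 UMIs, and their median mitochondrial share was 3.71%, 1.73%, 1.57% and 0.364%. Markers of other cells were common in these barcodes outside the naive library. At least 2 endothelial, 2 stellate or 2 Kupffer markers were present in 0.908% of them in naive and 50.5% in CS, against 32.6% in NEVLP2 and 44.4% in NEVLPcty. Without those barcodes 1528, 1614, 2848 and 1418 hepatocyte barcodes remained, called filtered here, and counts of members and of pathway genes between libraries are given for both sets. Levels of single genes are given for filtered barcodes where not stated otherwise. Filtered barcodes had a median depth of 1867, 1381.5, 1402 and 1749.5 UMIs. Their median mitochondrial share was 3.69%, 0.909%, 1.27% and 0.0764%, highest in naive, and the cause of this difference was not tested. Levels are given in CPM, the UMIs of a gene for each 1000000 UMIs summed over the barcodes of a class. The filtering lowered the summed level of the 6 endothelial markers from 87.9 to 12.6 CPM in naive, from 5522 to 264 in CS, from 1356 to 85.4 in NEVLP2 and from 3934 to 155 in NEVLPcty. The summed level of the 4 hepatocyte markers was 65170, 25851, 24528 and 16859 CPM in all hepatocyte barcodes, and 65788, 57734, 37686 and 37903 in filtered ones, so it still differed between libraries after filtering. Libraries shared from 7 to 32 barcode sequences in pairs, of which at most 4 were hepatocyte barcodes in both.

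The P450 transcripts together were most abundant in the naive library. Their sum was 12256 CPM in naive and 5254 in CS, against 4497 in NEVLP2 and 3359 in NEVLPcty over all hepatocyte barcodes. In filtered barcodes it was 12302, 10204, 6582 and 7229, so cold storage stood nearer to naive than both perfused libraries did. The 4 hepatocyte markers moved alike, and the members' UMIs came to 18.7%, 17.7%, 17.5% and 19.1% of the markers' UMIs in filtered barcodes and to 18.8%, 20.3%, 18.3% and 19.9% in all. Relative to these markers the summed P450 level was thus nearly even across libraries. The 4 markers also selected these barcodes, so they are no independent reference. Lymphoid barcodes, which should lack the hepatocyte members, gave 95.8, 174, 108 and 139 CPM. This sum also holds members found higher in lymphoid than in hepatocyte barcodes, such as Cyp2s1, so it is not background alone. After thinning each barcode to 1000 UMIs, the median filtered barcode held 6 different members in naive, 5 in CS and 4 in each perfused library. At least 1 member was seen in 97.7% to 99.5% of filtered barcodes and in 9.14% to 16.2% of lymphoid ones. These thinned values leave out barcodes under 1000 UMIs, namely 260 of 1528 filtered barcodes in naive and 458 of 1614 in CS. In NEVLP2 841 of 2848 were left out, and in NEVLPcty 272 of 1418. Shares without thinning, given for single genes below, use all barcodes.

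**Figure D1:**
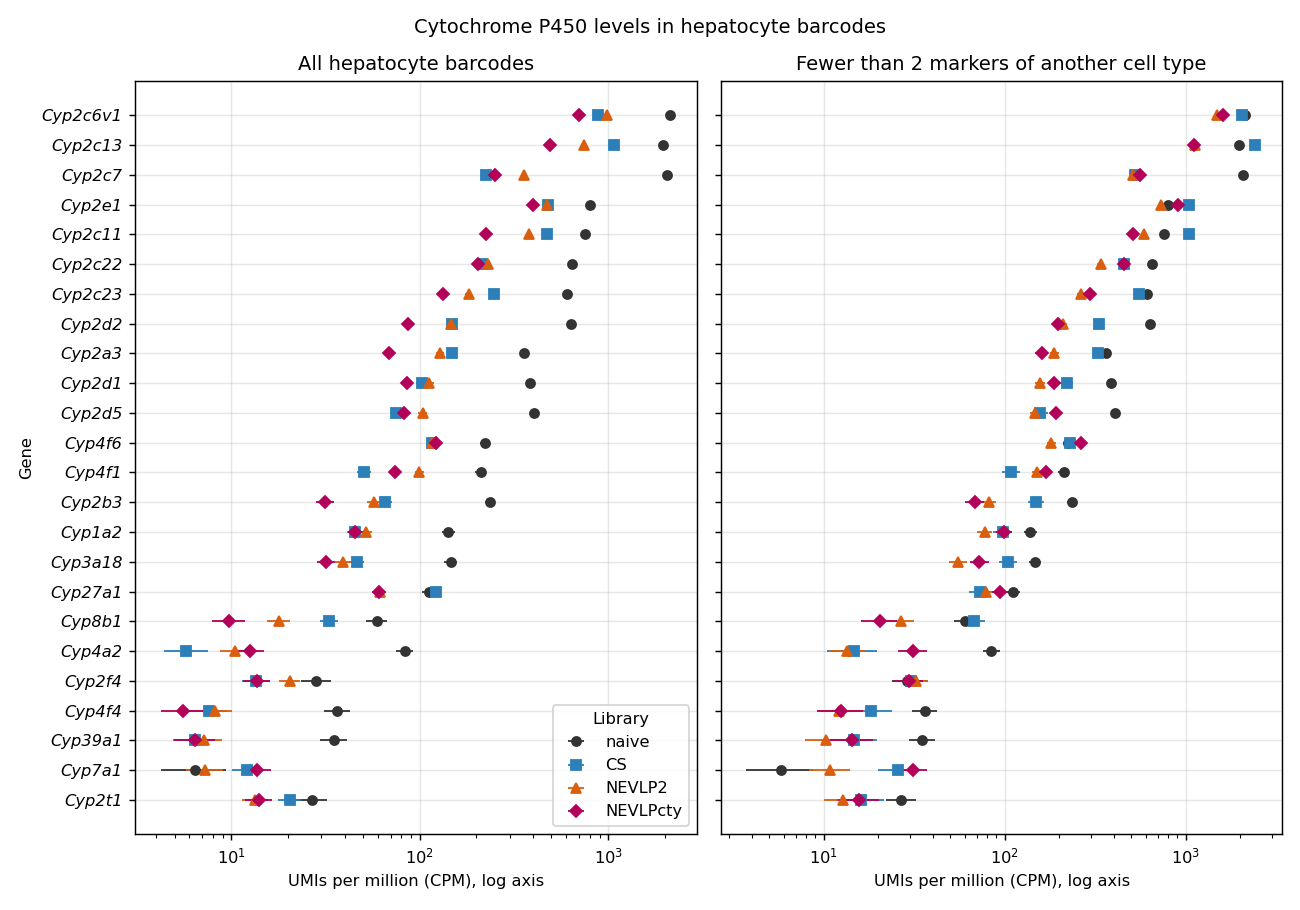
CPM of the leading cytochrome P450 genes in hepatocyte barcodes of each library, on a log axis, with 95% intervals for counting error. Most genes lie highest in naive in all hepatocyte barcodes, and in filtered barcodes Cyp2c13, Cyp2e1 and Cyp2c11 lie highest in CS.

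Members of family 2 led the hepatocyte barcodes, with the Cyp2c subfamily at the top. Cyp2c6v1, a drug-oxidising enzyme, stood at 2118 CPM in filtered barcodes of naive and 2048 in CS, against 1484 in NEVLP2 and 1599 in NEVLPcty. Cyp2c13, a steroid hydroxylase of male rats, stood at 1968, 2418, 1128 and 1117. Cyp2c11, the main steroid hydroxylase of adult male rats, stood at 756, 1042, 591 and 513. Both of the latter were highest in CS and lowest after perfusion. Cyp2c12, the counterpart of Cyp2c11 in females, was low everywhere, at 18 in naive and 5.35 in CS, against 1.05 in NEVLP2 and 3.98 in NEVLPcty. Reads of near-identical neighbours in the Cyp2c, Cyp2d and Cyp4a groups can be assigned to the wrong gene or discarded, so values of single genes in these groups are uncertain to that extent.

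Cyp2c7, which hydroxylates retinoic acid and steroids, differed most among the abundant members. It stood at 2059 CPM in naive and 225 in CS, against 359 in NEVLP2 and 250 in NEVLPcty over all hepatocyte barcodes. In filtered barcodes it was 2072, 528, 513 and 562, so the 3 treated libraries lay close together and far below naive. Naive was 3.93-fold above CS (95% interval 3.71 to 4.15), 4.04-fold above NEVLP2 (3.88 to 4.22) and 3.69-fold above NEVLPcty (3.51 to 3.87) in filtered barcodes. All intervals on levels, ratios and shares cover counting error only. The share of thinned filtered barcodes with a Cyp2c7 UMI was 55.2% in naive and 25.4% in CS, against 33.7% in NEVLP2 and 35.2% in NEVLPcty, and without thinning it was 62.1%, 28.2%, 41.9% and 50.2%. In lymphoid barcodes thinned alike it was 0.842%, 0.221%, 0% and 0%. At the depth of the lymphoid barcodes used, those values of 0 have exact binomial upper limits of 1.34% in NEVLP2 and 2.09% in NEVLPcty.

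Cyp2e1, which oxidises ethanol and paracetamol, behaved otherwise. Its level in filtered barcodes was 803 in naive and 1044 in CS, against 732 in NEVLP2 and 907 in NEVLPcty, a narrow range in which naive lay in the middle. In all hepatocyte barcodes it was 800, 481, 474 and 400. Cyp2c22, a retinoic acid hydroxylase of hepatocytes, stood at 648, 458, 341 and 459 in filtered barcodes. Cyp2c23, an arachidonic acid epoxygenase, stood at 611, 555, 266 and 297. For Cyp2c23 naive and CS were close, and both perfused libraries lay below both.

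The Cyp2d group oxidises basic drugs. Cyp2d2 stood at 633 CPM in naive and 332 in CS, against 209 in NEVLP2 and 197 in NEVLPcty (filtered), an order in which cold storage took the middle. Cyp2d1 stood at 389, 220, 157 and 188, and Cyp2d5 at 409, 158, 147 and 191. Cyp2d5 in naive was 2.60-fold above CS (2.34 to 2.89), 2.78-fold above NEVLP2 (2.56 to 3.03) and 2.14-fold above NEVLPcty (1.96 to 2.34). Cyp2d4 was lower throughout, at 26.0, 13.2, 11.1 and 17.3. Cyp2a3 stood at 361, 329, 188 and 160. Cyp2b3, a liver gene of the subfamily known for its phenobarbital-inducible members, stood at 237, 149, 81.9 and 68.2, again with both perfused libraries below CS. Cyp2b2, a phenobarbital-inducible member, had at most 7 UMIs in filtered barcodes of any library.

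Families 1 and 3 were less abundant. Cyp1a2, which oxidises caffeine and arylamines, stood at 138 CPM in naive and 97.7 in CS, against 77.4 in NEVLP2 and 99.6 in NEVLPcty (filtered). Cyp1a1, the classic target of the aryl hydrocarbon receptor, was at 0 in naive and NEVLP2, 0.713 in CS and 10.6 in NEVLPcty. The last value rests on 40 UMIs in 4 barcodes, 24 of them in 1 barcode. Endothelial barcodes were alike, with 144 Cyp1a1 UMIs in 14 NEVLPcty barcodes and 0 in the other libraries. Cyp3a18, a steroid hydroxylase, stood at 147, 105, 55.4 and 72.5, and Cyp3a62 at 8.99, 2.85, 1.40 and 2.39. Cyp3a9 had at most 17 UMIs in filtered barcodes of any library.

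Fatty acid hydroxylases of the Cyp4a group, textbook targets of PPARα, were low outside the naive library. Cyp4a2 stood at 84.3 CPM in naive and 14.6 in CS, against 13.5 in NEVLP2 and 31.1 in NEVLPcty (filtered). Naive was 5.77-fold above CS (4.17 to 8.18), 6.24-fold above NEVLP2 (4.86 to 8.10) and 2.71-fold above NEVLPcty (2.20 to 3.38). Cyp4a1 stood at 25.5, 11.4, 6.84 and 10.1, Cyp4a8 at 13.1, 4.99, 3.86 and 3.19, and Cyp4a3 at 6.07, 1.78, 1.23 and 3.19. Each of these 4 was highest in naive, with wide intervals for Cyp4a3, which had 5 to 25 UMIs a library.

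The Cyp4f group, which hydroxylates fatty acids and leukotrienes, did not move as a block. Cyp4f6 stood at 224, 229, 181 and 265 CPM (filtered), with no library at a fold of 2 from another. Cyp4f1 stood at 212, 109, 152 and 169, lowest in CS. Cyp4f4 stood at 36.2, 18.2, 12.1 and 12.5. Cyp4f39 went the other way in the cytokine library, at 5.59, 2.50, 4.04 and 13.8, where NEVLPcty exceeded NEVLP2 by 3.42-fold (2.06 to 5.86).

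Members of bile acid synthesis split. Cyp7a1, the rate-limiting enzyme, was lowest in naive, at 5.83 CPM against 25.7 in CS, 10.9 in NEVLP2 and 31.1 in NEVLPcty (filtered). CS was 4.40-fold above naive (2.74 to 7.31), NEVLP2 1.87-fold (1.15 to 3.13) and NEVLPcty 5.33-fold (3.41 to 8.64). NEVLPcty was 2.86-fold above NEVLP2 (2.08 to 3.95). In all hepatocyte barcodes the levels were 6.43, 12.2, 7.26 and 13.7, with NEVLPcty 2.13-fold above naive (1.41 to 3.35). After thinning, a Cyp7a1 UMI was found in 0.552% of filtered barcodes in naive and 2.60% in CS, against 1.35% in NEVLP2 and 2.53% in NEVLPcty (1.18%, 3.66%, 2.04% and 4.09% without thinning), so the transcript was seen in few hepatocytes of any library.

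Cyp8b1, the 12α-hydroxylase that sets the share of cholic acid, lay below naive in both perfused libraries, where filtered Cyp7a1 lay above it. Against CS, both genes were lower in NEVLP2 in filtered barcodes. Cyp8b1 stood at 60.0 in naive and 67.4 in CS, against 26.8 in NEVLP2 and 20.4 in NEVLPcty (filtered). Naive was 2.24-fold above NEVLP2 (1.82 to 2.75) and 2.94-fold above NEVLPcty (2.26 to 3.84). Cyp27a1, the mitochondrial sterol 27-hydroxylase, stood at 112, 73.4, 79.0 and 94.8. Cyp39a1, an oxysterol 7α-hydroxylase, stood at 35.0, 14.6, 10.4 and 14.3, highest in naive. Cyp7b1, also an oxysterol 7α-hydroxylase, had 4, 23, 10 and 5 UMIs in filtered barcodes and was mainly found in endothelial barcodes, as described with that class.

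Counted over the family on the CPM scale, members at least 2-fold below naive were more frequent than such genes among all. In CS over naive 22 of 44 tested members were at least 2-fold lower over all hepatocyte barcodes, against 6.34% of all genes, and 9 were at least 2-fold higher, against 61.3%. NEVLP2 over naive gave 27 lower and 6 higher of 43, against 8.21% and 50.1% of all genes. NEVLPcty over naive gave 28 lower and 11 higher of 45, against 9.24% and 56.4%. The median log2 ratio of the members was −0.99, −1.46 and −1.64 in these comparisons, where that of all genes was 1.52, 1.00 and 1.33. A member was tested with at least 20 UMIs in both libraries together, and no test across libraries exists with 1 library a group.

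Filtering lowered the share of members below naive, most in cold storage. In filtered barcodes CS over naive gave 11 lower and 4 higher of 38, against 4.51% and 16.6% of all genes. NEVLP2 over naive gave 20 lower and 0 higher of 36, against 6.24% and 37.9%. NEVLPcty over naive gave 19 lower and 3 higher of 37, against 6.24% and 34.2%. Median log2 ratios of the members were −0.64, −1.18 and −1.03, beside 0.38, 0.63 and 0.60 for all genes. The comparisons with naive share that library, so their agreement is no separate evidence.

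The members lower in CS than in naive in both sets of barcodes were Cyp2c7, Cyp2c12, Cyp2d5, Cyp3a62, Cyp39a1, Cyp4a1, Cyp4a2, Cyp4a3, Cyp4a8 and Cyp4f39, although the interval of the filtered 2.24-fold difference of Cyp4f39 reached equality (0.93 to 6.18). These were 10 of 38 members tested in both sets, against 2.73% of all genes so tested. Those lower in NEVLP2 in both sets numbered 19 of 36, against 5.15%, and those lower in NEVLPcty 19 of 37, against 4.44%. Lower in all 3 comparisons and both sets were 8 of 35 members, against 1.62%: Cyp2c7, Cyp2c12, Cyp2d5, Cyp3a62, Cyp39a1, Cyp4a1, Cyp4a2 and Cyp4a8. Higher in both sets were Cyp4b1 and Cyp7b1 in CS, and Cyp1a1 and Cyp7a1 in NEVLPcty, against 14.8% and 29.8% of all genes. For NEVLP2 0 were higher in both sets, against 35.1%, and 0 were higher in all 3 comparisons, against 8.47%.

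These counts depended on what the counts were scaled to. The 4 hepatocyte markers used for 1 scaling also selected the barcodes, so that scaling has no independent reference. Scaled to the 4 hepatocyte markers, members at least 2-fold lower numbered 7 in CS, 6 in NEVLP2 and 3 in NEVLPcty over all hepatocyte barcodes, against 0.846%, 0.92% and 0.642% of all genes, and 9, 6 and 5 in filtered ones, against 3.28%, 1.46% and 1.89%. Under this scaling the median log2 ratio of all genes was 2.85, 2.41 and 3.28 over all barcodes, and 14, 9 and 16 members were at least 2-fold higher, against 86.7%, 81.7% and 90.3%. In filtered barcodes 4, 2 and 4 members were higher, against 23.2%, 66.2% and 67%. Scaled by median-of-ratios size factors over genes, 33, 35 and 33 members were lower, against 22.5%, 23.3% and 26.2% of all genes, and 7, 5 and 8 were higher, against 34.3%, 33.8% and 35.7%. The all-gene medians were then 0.26, 0.21 and 0.29. Cyp2c7, 1 of the 8 members lower in all 3 comparisons and both sets, stayed at least 2-fold below naive in every library under each of these scalings. Scaled to the hepatocyte markers in filtered barcodes, its log2 ratio to naive was −1.78 in CS, −1.21 in NEVLP2 and −1.09 in NEVLPcty. Cyp2d5 was at −1.19, −0.67 and −0.30 and Cyp4a2 at −2.34, −1.84 and −0.65 on the same scale. Values of the other members of the 8 on this scale are not listed here, and some of them may also have stayed past 2-fold. Cyp7a1 in NEVLPcty over naive was at 0.05 with median-of-ratios scaling over all barcodes and at 3.21 with hepatocyte-marker scaling in filtered ones.

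**Figure D2:**
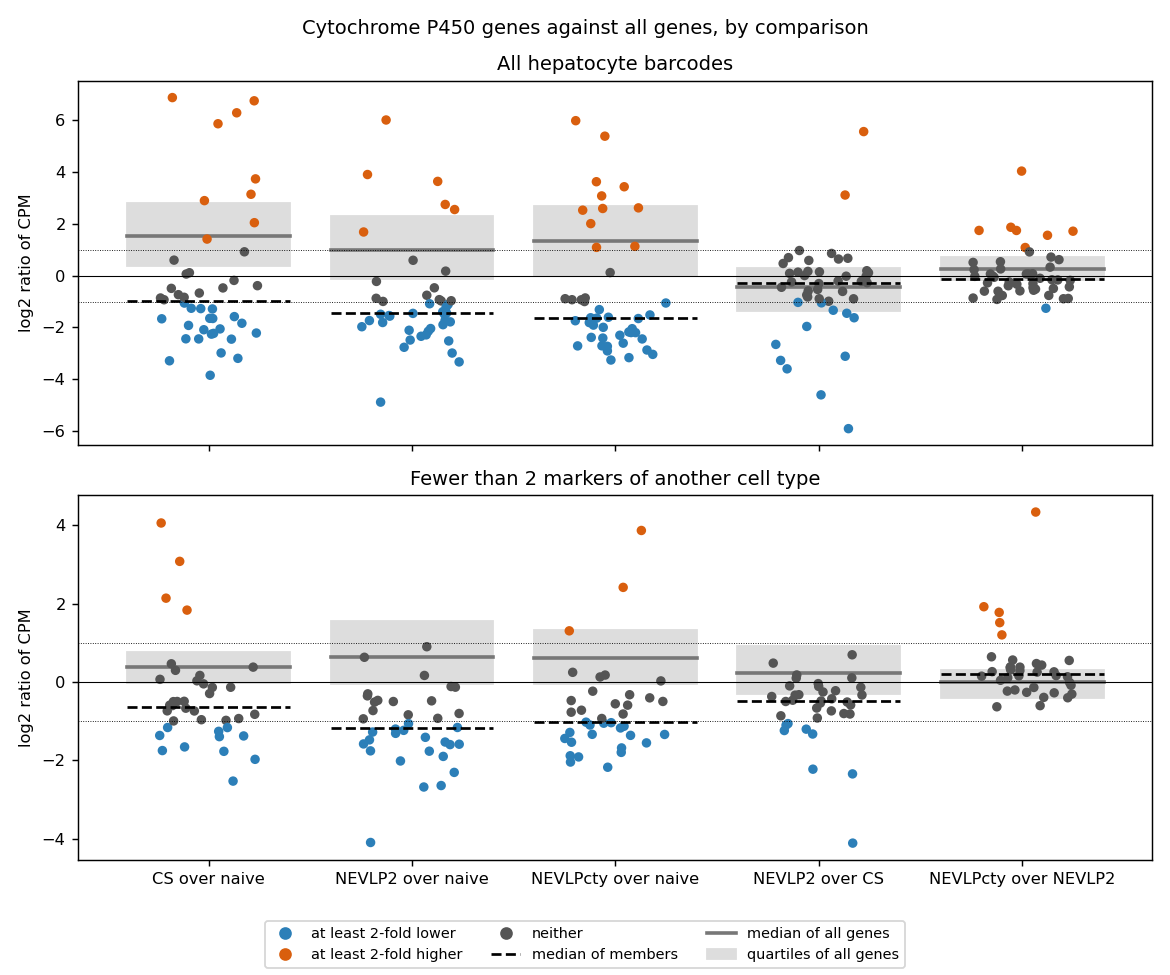
Log2 ratio of CPM between libraries for each tested member (points, blue at least 2-fold lower, orange at least 2-fold higher), with the members' median and the median and quartiles of all genes. Members with 0 UMIs in 1 library are set at a floor of 3 UMIs. The members' median lies below that of all genes in the 3 comparisons with naive, in both sets of barcodes.

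Perfusion against cold storage gave fewer members past 2-fold. NEVLP2 over CS had 12 lower and 2 higher of 44 over all hepatocyte barcodes, against 33.2% and 11% of all genes. In filtered barcodes it had 8 lower and 0 higher of 36, against 6.82% and 22.6%. Those 8 were Cyp4b1, Cyp2c12, Cyp7b1, Cyp8b1, Cyp7a1, Cyp3a9, Cyp2c13 and Cyp2c23, and 3 of them (Cyp2c12, Cyp4b1 and Cyp7b1) were also lower over all hepatocyte barcodes. Cyp2c13 in CS was 2.14-fold above NEVLP2 (2.07 to 2.22) in filtered barcodes and 1.45-fold above it (1.41 to 1.49) in all.

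Few members passed 2-fold between the cytokine library and NEVLP2, and those of filtered barcodes were all higher in NEVLPcty. NEVLPcty over NEVLP2 had 1 lower and 7 higher of 46 over all hepatocyte barcodes, against 5.7% and 14.6% of all genes. In filtered barcodes it had 0 lower and 5 higher of 36, against 10.3% and 3.62%. Those 5 were Cyp1a1, Cyp2c12, Cyp4f39, Cyp7a1 and Cyp4a2. Of these, Cyp1a1 rested on 4 NEVLPcty barcodes, and Cyp2c12 on 15 UMIs in NEVLPcty, 5 of them in 1 barcode, against 6 UMIs in NEVLP2. Cyp4a2 in NEVLPcty was 2.30-fold above NEVLP2 (1.71 to 3.11) when filtered. Over all hepatocyte barcodes its log2 ratio was 0.26.

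Both perfused libraries lay below both of the others in 19 of 39 members with at least 40 UMIs in filtered barcodes, against 13.1% of all genes, and in 19 of 45 over all hepatocyte barcodes, against 15.3%. They included Cyp2c11, Cyp2c13, Cyp2c23, Cyp2d2, Cyp2a3, Cyp2b3, Cyp3a18 and Cyp8b1 in both sets. No member lay above in filtered barcodes, against 44.7% of all genes. Over all hepatocyte barcodes 2 did, Cyp4f5 and Cyp4f37, against 23.8%. The 4 hepatocyte markers were also lower after perfusion, and most of these members no longer lay below when scaled to them. So scaled, 5 of 39 lay below in filtered barcodes, against 2.23% of all genes, and 8 above, against 74.9%. Over all hepatocyte barcodes 5 of 45 lay below, against 1.32%, and 8 above, against 34.5%. Cyp2a3, Cyp2b3, Cyp2c23 and Cyp8b1 lay below in both sets under both scalings, whereas Cyp2c6v1, Cyp2e1, Cyp2f4, Cyp4f1, Cyp4f6 and Cyp4f39 lay above in both sets when scaled to the markers. Likewise NEVLP2 over CS, filtered and so scaled, had 3 members lower, against 2.69%, and 2 higher, against 42.6%, with a median log2 ratio of 0.12.

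Genes that serve the P450 enzymes were counted from listed pathways, with CPM levels ordered naive, CS, NEVLP2, NEVLPcty and counts and medians ordered CS, NEVLP2, NEVLPcty. Counts are of genes past 2-fold from naive, and the shares of all genes are those given with the members. Of 7 redox partners in filtered barcodes, 0 were lower in any library and 0, 1 and 1 were higher, while over all hepatocyte barcodes 0, 1 and 2 were lower and 1, 2 and 2 higher. Por, the electron donor of the microsomal members, stood at 10.9, 9.63, 23.0 and 28.7 (filtered). Among nuclear receptors and hepatocyte factors, 3 of 17 tested were higher and 1 lower in CS, 7 and 3 of 19 in NEVLP2, and 9 and 2 of 18 in NEVLPcty in filtered barcodes. Unfiltered, 6 of 18 were higher and 4 lower in CS, 6 and 6 of 20 in NEVLP2, and 7 and 6 of 19 in NEVLPcty. The median log2 ratio of that list was 0.51, 0.41 and 1.03 when filtered, where that of all genes was 0.38, 0.63 and 0.60. Nr1i3, the receptor CAR that drives Cyp2b genes, stood at 31.3, 16.8, 3.68 and 9.03 (filtered). Nr1i2, the receptor PXR that drives Cyp3a genes, stood at 43.3, 32.1, 25.4 and 41.1. Nr0b2, the repressor SHP that acts on Cyp7a1, stood at 3.89, 51.7, 2.28 and 9.56, and Cebpb, an acute-phase transcription factor, at 162, 486, 1807 and 1509.

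Conjugation and bile acid genes depended on the set of barcodes. Of 24 tested conjugation genes, 1 was higher and 2 lower in CS, 2 and 3 in NEVLP2, and 3 and 2 in NEVLPcty in filtered barcodes, with median log2 ratios of 0.18, 0.05 and 0.09. Without filtering 1, 2 and 1 were higher and 7, 5 and 13 lower, with medians of −0.74, −0.57 and −1.08. In the list of bile acid synthesis and transport, 0 of 14 were higher and 3 lower in CS, and 1 of 15 higher and 5 lower in each perfused library when filtered, with medians of −0.02, −0.41 and −0.67. Without filtering 1 of 15 was higher in each library and 5, 7 and 12 were lower, with medians of −0.97, −0.94 and −1.47. Slc10a1, the bile acid uptake carrier, stood at 384, 337, 138 and 155 (filtered), and Abcb11, the bile salt export pump, at 40.3, 6.06, 8.60 and 11.1.

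Of 12 haem genes in filtered barcodes, 3, 2 and 2 were higher and 0 were lower, with medians of 0.54, 0.26 and 0.42. Without filtering 3, 1 and 2 were higher and 0, 1 and 2 lower. Alas1, the first enzyme of haem synthesis, stood at 54.7, 134, 27.9 and 45.7 (filtered), and Hmox1, which breaks haem down, at 5.59, 20.3, 1677 and 980.4. In the list of retinoid handling, 2 of 10 were higher and 0 lower in CS, 3 and 2 of 10 in NEVLP2, and 2 and 3 of 9 in NEVLPcty when filtered. Without filtering 5 of 11 were higher and 2 lower in CS, 7 and 3 of 13 in NEVLP2, and 6 and 4 of 12 in NEVLPcty.

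Zones of the lobule were compared inside each library, which uses the 4 libraries as replicates of the zone difference. Hepatocyte barcodes with UMIs of Glul, Slc1a2, Rhbg or Lgr5 and none of the periportal genes counted as pericentral, and those with UMIs of Hal, Sds or Gls2 and none of the pericentral genes as periportal. Filtered barcodes gave 118, 170, 522 and 245 pericentral and 428, 361, 787 and 420 periportal barcodes in naive, CS, NEVLP2 and NEVLPcty. Of 29 tested members, 5 were higher pericentrally, against 5.66% of all genes, and 6 periportally, against 6.39% (edgeR quasi-likelihood test with a library block, Benjamini-Hochberg adjusted p at most 0.05). The treatment differences between libraries count as spread here, and the fits with filtered barcodes were not repeated with a library left out.

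Cyp7a1 had the largest pericentral excess, with 20.4 against 1.82 CPM in naive, 82.8 against 6.04 in CS, 22.6 against 2.98 in NEVLP2 and 55.2 against 0.821 in NEVLPcty. Its log2 fold was 3.79 (edgeR adjusted p = 1.5e-06), and all 4 libraries showed it. Cyp1a2 was at 339 against 95.6, 155 against 66.4, 166 against 36.4 and 175 against 57.5, a log2 fold of 1.73 (edgeR adjusted p = 3e-07). Cyp2e1 had a smaller excess of 0.88 (edgeR adjusted p = 5.9e-06), with 1032 against 675 in naive, 1525 against 712 in CS, 1053 against 508 in NEVLP2 and 1151.5 against 633 in NEVLPcty. Cyp2c6v1 had 0.60 (edgeR adjusted p = 0.0018) and Cyp27a1 0.52 (edgeR adjusted p = 0.033), each higher pericentrally in 4 of 4 libraries.

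Periportal members included Cyp2c7 and Cyp4a2, which were also among those lowest relative to naive. Cyp2c7 stood at 474 pericentral against 2941 periportal in naive, 155 against 920 in CS, 144 against 736 in NEVLP2 and 198 against 837 in NEVLPcty. The mean log2 difference was −2.41 ± 0.25 (SD, n = 4 libraries), and the fit gave −2.42 (edgeR adjusted p = 3.3e-11). Cyp4a2 stood at 17.8 against 138, 0 against 30.2, 6.47 against 16.1 and 1.28 against 37.8, with a log2 fold of −2.79 (edgeR adjusted p = 5.2e-05). Smaller periportal excesses passed for Cyp4f1 (−0.65), Cyp2d1 (−0.51), Cyp4f6 (−0.44) and Cyp2d5 (−0.40), the last in 3 of 4 libraries.

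**Figure D3:**
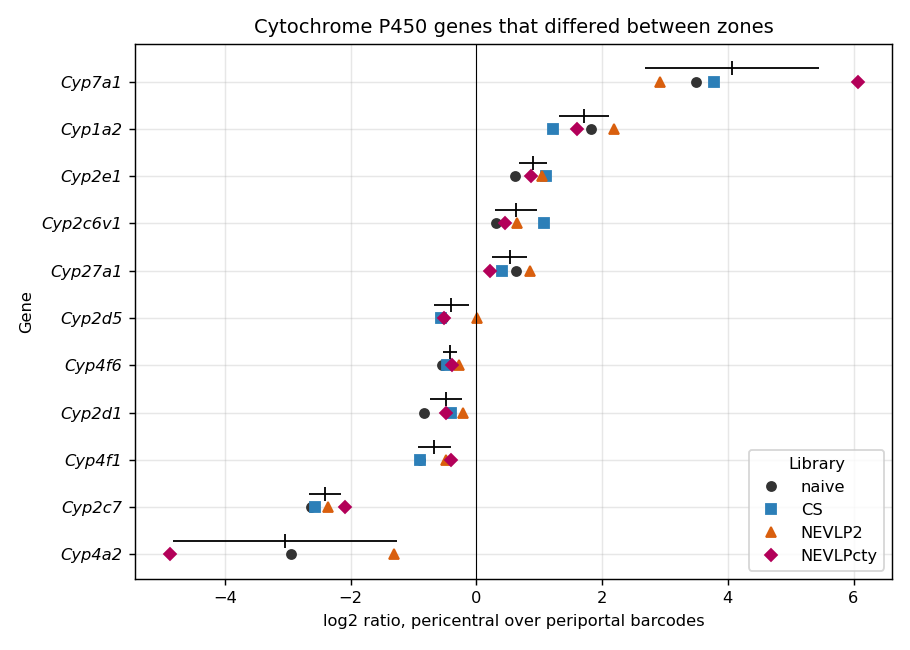
Log2 ratio of pericentral over periportal level in filtered hepatocyte barcodes for the members called by zone, 1 point per library. Cyp7a1 and Cyp1a2 lie above 0 and Cyp2c7 below 0 in all 4 libraries, and Cyp4a2 has no CS point because its pericentral count was 0.

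The zone result rested on the filtering. Over all hepatocyte barcodes 5 members were higher pericentrally (3 without NEVLPcty), against 31.9% of all genes, and 22 of 34 were lower, against 24%. The 5 were Cyp4b1, Cyp7b1, Cyp4f5, Cyp26b1 and Cyp20a1, and Cyp2c6v1, Cyp2c11, Cyp2c22 and Cyp8b1 turned from lower to a positive log2 fold on filtering. Endothelial markers summed to 8555 CPM in pericentral and 728 in periportal barcodes of CS, and to 710 against 5.99 in naive, 2456 against 140 in NEVLP2 and 5665 against 449 in NEVLPcty. In filtered barcodes they summed to 33.1 against 6.05, 300.2 against 213.8, 100.3 against 66.8 and 134 against 159. Cyp2c7, Cyp4a2, Cyp4f1, Cyp2d1, Cyp2d5 and Cyp4f6 were periportal in both sets. The pericentral share of zoned filtered barcodes was 21.6% in naive and 32.0% in CS, against 39.9% in NEVLP2 and 36.8% in NEVLPcty. The share of barcodes called pericentral thus differed between libraries. Whether the mix of cells, the level of the zone markers or the depth differed was not tested.

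Within each zone, the distance of Cyp2c7 from naive was still present. In periportal filtered barcodes naive was 3.19-fold above CS (2.96 to 3.45), 4.00-fold above NEVLP2 (3.75 to 4.26) and 3.51-fold above NEVLPcty (3.28 to 3.76). In pericentral barcodes it was 3.05-fold (2.19 to 4.32), 3.29-fold (2.67 to 4.07) and 2.40-fold (1.93 to 2.99). Cyp2d2 also lay lower in both zones, with log2 ratios to naive of −1.10, −1.52 and −1.64 pericentrally and −1.05, −1.80 and −1.88 periportally. Cyp7a1 in pericentral barcodes exceeded naive by 4.06-fold in CS (1.77 to 10.5) and by 2.71-fold in NEVLPcty (1.26 to 6.67), while in NEVLP2 the ratio was 1.11 (0.493 to 2.82).

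In endothelial barcodes, Cyp4b1, Cyp7b1, Cyp26a1, Cyp26b1 and Cyp27a1 were the 5 most abundant members in naive and CS, whereas Cyp4f5 led in NEVLP2 and Cyp4b1 in NEVLPcty. These barcodes had at least 3 of Stab2, Kdr, Cdh5, Egfl7, Ramp2 and Eng, no Ptprc and fewer than 3 hepatocyte markers, and they numbered 35 in naive and 3613 in CS, against 1540 in NEVLP2 and 5563 in NEVLPcty. Compared with filtered hepatocyte barcodes, 9 members were higher in the class, against 37.2% of all genes, and 33 were lower, against 31.6%. The 9 of 47 were a smaller share than among all genes, and Cyp27a1 was not among them. The 9 were Cyp4b1, Cyp26b1, Cyp26a1, Cyp4f37, Cyp7b1, Cyp4f5, Cyp4f17, Cyp2u1 and Cyp20a1, with log2 folds of 5.44, 5.18, 5.11, 4.73, 4.44, 3.83, 2.55, 1.71 and 1.36. The largest edgeR adjusted p among them was 0.0059, for Cyp2u1. Compared with all hepatocyte barcodes, Cyp7b1 alone was higher (log2 fold 1.62, edgeR adjusted p = 0.046), against 1.84% of all genes, and 27 of 47 were lower, against 19.4%. The count of 1 became 0 without NEVLP2 and 0 without NEVLPcty.

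Cyp26a1, the main retinoic acid hydroxylase of liver, is known as a direct target of retinoic acid receptors, which bind paired short sites upstream of it. Its promoter is shown because it holds such a pair. The 250 bases before the start in RefSeq (GRCr8, chr1:244883572-244883821, plus strand) are printed with both sites in capitals. They read AGTTCA on the opposite strand, 5 bases apart, from 92 to 76 bases before the start.
Cyp26a1: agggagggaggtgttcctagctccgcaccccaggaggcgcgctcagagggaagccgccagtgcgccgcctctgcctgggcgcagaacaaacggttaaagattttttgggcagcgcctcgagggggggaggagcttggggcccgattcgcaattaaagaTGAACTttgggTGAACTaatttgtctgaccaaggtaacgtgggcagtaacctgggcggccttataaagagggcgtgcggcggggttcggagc
This motif, AGTTCA followed after any 5 bases by AGTTCA and searched on both strands, occurs in 3 of 33469 RefSeq promoters of this length (0.00896%), and with AGGTCA allowed in either place in 10 (0.0299%). Of the 44 members with a promoter entry, Cyp26a1 alone held it. A match describes letters and shows no binding.

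Cyp26a1 was high in endothelial barcodes of naive and CS and low after perfusion. It stood at 160 CPM in naive and 162 in CS, against 2.96 in NEVLP2 and 4.61 in NEVLPcty, from 27, 2913, 25 and 140 UMIs. CS was 54.8-fold above NEVLP2 (37.0 to 84.8), and naive was 34.8-fold above NEVLPcty (22.1 to 52.7). In NEVLP2, 12 of the 25 UMIs came from 1 barcode. A Cyp26a1 UMI was found in 13 naive, 1176 CS, 12 NEVLP2 and 95 NEVLPcty barcodes. After thinning that was 18.5% (6.30% to 38.1%), 12.5% (11.4% to 13.7%), 0.267% (0.0728% to 0.683%) and 0.480% (0.314% to 0.703%), against 37.1%, 32.5%, 0.779% and 1.71% without thinning. The thinned shares used 27 of 35, 3316 of 3613, 1497 of 1540 and 5413 of 5563 endothelial barcodes. Thinned lymphoid barcodes gave 0%, 0.664%, 0% and 0%, with upper limits of 1.34% in NEVLP2 and 2.09% in NEVLPcty, so at this depth the shares do not separate perfused endothelial from lymphoid barcodes. By level, lymphoid barcodes gave 0.684 CPM in NEVLP2 (0.0828 to 2.47) and 0.598 in NEVLPcty (0.0151 to 3.33), against 1.92 to 4.38 and 3.88 to 5.44 for the endothelial intervals, which lie apart in NEVLPcty and overlap in NEVLP2.

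Cyp26b1, the related retinoic acid hydroxylase, differed less, at 309, 78.7, 16.4 and 24.4 CPM. CS was 4.81-fold above NEVLP2 (4.03 to 5.77). Among members with at least 20 UMIs in each comparison, Cyp26b1 alone was at least 2-fold below naive in all 3 treated libraries in this class. Cyp2u1, with 7 UMIs in naive and 8 in NEVLP2, was under that minimum and so was not counted, although its levels lay below naive too. Most other genes of retinoid handling did not pass 2-fold. Of 11 tested genes of that list, 1 was at least 2-fold higher and 2 were lower in NEVLP2 over CS, against 10.2% and 46.4% of all genes, and the list's median log2 ratio was 0.17, where that of all genes was −0.85. The 3 that passed are given here. Dhrs3, a retinaldehyde reductase, stood at 243, 254, 8.06 and 27.4, and Rarg, a retinoic acid receptor, at 225, 257, 12.1 and 22.2. Rdh10, which oxidises retinol towards retinoic acid, went the other way, at 23.7, 15.2, 458 and 322.

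Cyp4b1, an enzyme of fatty acids and furans, stood at 564 CPM in naive and 429 in CS, against 22.2 in NEVLP2 and 52.9 in NEVLPcty, and CS was 19.4-fold above NEVLP2 (16.7 to 22.5). Cyp7b1 stood at 243, 169, 62.4 and 39.4, with CS 2.71-fold above NEVLP2 (2.47 to 2.98). Cyp27a1 stood at 225, 158, 30.6 and 34.3, with CS 5.15-fold above NEVLP2 (4.53 to 5.87). Cyp2u1, a fatty acid hydroxylase, stood at 41.5, 15.4, 0.949 and 4.94. The same order held for these genes, with naive and CS above both perfused libraries.

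Among 35 tested members 3 were at least 2-fold higher in NEVLP2 than in CS, namely Cyp4f5, Cyp4f37 and Cyp2c7. Cyp4f5 stood at 23.7 in naive and 7.24 in CS, against 85.3 in NEVLP2 and 46.3 in NEVLPcty, and NEVLP2 was 11.8-fold above CS (9.75 to 14.3). Its naive level rested on 4 UMIs (6.47 to 60.8 CPM), an interval that covers the NEVLPcty level. Cyp4f37 stood at 0, 0.279, 13.9 and 6.72, with NEVLP2 49.8-fold above CS (20.7 to 156). With 35 naive barcodes, 0 UMIs of Cyp4f37 have an exact Poisson upper limit of 21.9 CPM there, so a difference from naive was not detectable. Cyp2c7 stood at 0, 4.07, 10.3 and 5.33, with NEVLP2 2.54-fold above CS (1.84 to 3.51), while the 4 hepatocyte markers summed to 481, 378, 556 and 316 CPM in these barcodes, and the part of hepatocyte RNA in that difference was not tested.

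**Figure D4:**
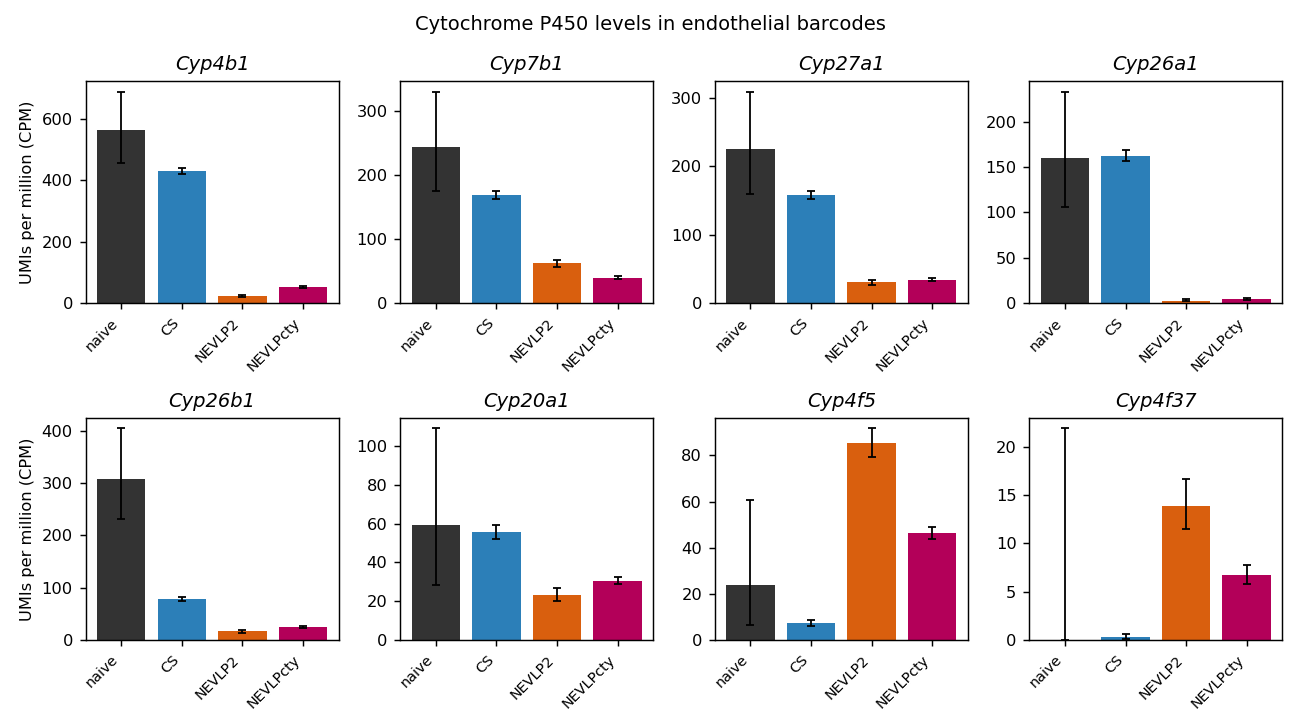
CPM of 8 members in endothelial barcodes of each library (bars), with 95% intervals for counting error (lines). Cyp26a1, Cyp26b1, Cyp4b1, Cyp7b1 and Cyp27a1 lie lower in both perfused libraries than in naive and CS. Cyp4f5 and Cyp4f37 lie higher in both perfused libraries than in CS, and the naive interval of Cyp4f5 covers its NEVLPcty level.

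Counted over the class, the members did not stand out from other genes. NEVLP2 over CS had 16 lower and 3 higher of 35 tested members, against 46.4% and 10.2% of all genes. Both perfused libraries lay below both others in 15 of 34 members, against 45.8% of all genes, and above in 5 (Cyp1a2, Cyp2c7, Cyp2c22, Cyp4f5 and Cyp4f37), against 20.6%. Of these, Cyp1a2, Cyp2c7, Cyp2c22 and Cyp4f37 had 0 UMIs in naive, with an upper limit of 21.9 CPM, above their perfused levels. Cyp4f5 had 4 UMIs in naive (6.47 to 60.8 CPM), which covers its NEVLPcty level. A difference from naive in both perfused libraries was thus not shown for these 5. Of the 15 below, Cyp2a3, Cyp2d5 and Cyp2t1 had 1, 2 and 4 UMIs in naive. Their naive intervals (0.150 to 33.1, 1.44 to 42.9 and 6.47 to 60.8 CPM) cover both perfused levels, so a difference from naive was not shown for them either. The naive intervals of Cyp2j10 and Cyp20a1 cover the NEVLPcty level. CS over naive had 5 lower and 0 higher of 33, against 11.4% and 6.63%. NEVLP2 over naive had 12 lower and 1 higher of 26, against 40.7% and 11.7%. NEVLPcty over naive had 16 lower and 0 higher of 34, against 34% and 10.1%, and NEVLPcty over NEVLP2 had 1 lower and 4 higher of 34, against 4.85% and 15.3%. Several endothelial markers moved in the same direction. Kdr stood at 5299 in naive and 3112 in CS, against 600.3 in NEVLP2 and 844 in NEVLPcty, and Ramp2 at 1751, 1820, 160 and 516, whereas Cdh5 stood at 1228, 881, 1014 and 1314 and Egfl7 at 682, 862, 1036 and 2500. The part of the kind or state of endothelial cell caught in each library was not tested.

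The endothelial members were also counted in hepatocyte barcodes. Cyp4b1 stood at 3.10 in naive and 243 in CS, against 9.97 in NEVLP2 and 33.5 in NEVLPcty over all hepatocyte barcodes, and at 0, 12.1, 0.702 and 1.33 in filtered ones. Cyp26a1 stood at 0, 84.2, 1.40 and 4.13, and at 0, 3.92, 0 and 0.531 when filtered. The high CS values of these 2 genes in hepatocyte barcodes were thus seen almost wholly in barcodes with markers of another cell type.

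Stellate cells were too few to describe, with 1, 9, 13 and 16 barcodes having at least 3 of Dcn, Lrat, Colec11, Reln, Col3a1 and Bgn. Cyp26a1 and Cyp26b1 had 0 UMIs in all of them. The fit over the 2 libraries with at least 10 such barcodes found Cyp7b1 higher than in filtered hepatocyte barcodes (log2 fold 5.56, edgeR adjusted p = 0.00051), against 5.29% of all genes, from 10 UMIs in 3 barcodes of NEVLP2 and 2 UMIs in 1 barcode of NEVLPcty. In that fit 16 members were lower, against 9.36%. Compared with all hepatocyte barcodes, edgeR and DESeq2 each called 0 higher (edgeR 1 at an unadjusted p under 0.05), against 0.63%, and edgeR called 3 lower, against 1.78%. Cyp1b1, which is known from mesenchymal cells, had 11 UMIs in 1 of 9 CS barcodes and 6 in 1 of 13 NEVLP2 barcodes.

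Kupffer barcodes, the resident macrophages with at least 3 of Clec4f, Cd5l, Marco, Vsig4, C1qa and C1qb, numbered 117, 1039, 598 and 378. Cyp2d1 led in 3 of 4 libraries, at 62.6, 73.1, 36.8 and 42.2 CPM, with a UMI in 37.6%, 52.3%, 32.9% and 33.9% of barcodes. Those levels exceeded Cyp2c6v1, the leading hepatocyte member, which stood at 1.54, 6.82, 10.5 and 7.04 in the same barcodes. Cyp27a1 stood at 17.8, 23.1, 63.7 and 11.1 and led in NEVLP2. Cyp4v3, a fatty acid hydroxylase, stood at 40.9, 32.9, 10.5 and 13.4. Compared with all hepatocyte barcodes 1 member was higher, against 19.5%, and 39 were lower, against 24%, and compared with filtered ones 1 was higher, against 33.1%, and 35 were lower, against 25.5%. The former was Cyp11b3, an adrenal steroid hydroxylase, with 5 UMIs in 2 barcodes, and the latter Cyp2u1 (log2 fold 1.20, edgeR adjusted p = 0.048). The former count became 0 without CS, NEVLP2 or NEVLPcty.

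Lymphoid barcodes had low levels, and members higher there were less frequent than such genes among all. Compared with all hepatocyte barcodes 5 members were higher, against 28.6% of all genes, and 38 were lower, against 26.6%. Compared with filtered ones 4 were higher, against 36.3%, and 36 lower, against 27.8%. Cyp2s1, which oxidises retinoids and eicosanoids, stood at 10.0 in naive and 15.1 in CS, against 19.1 in NEVLP2 and 32.9 in NEVLPcty, with a log2 fold of 4.60 over all hepatocyte barcodes (edgeR adjusted p = 6.1e-05). Cyp4f17 stood at 8.88, 14.8, 7.18 and 17.3, and Cyp2u1 at 11.4, 13.0, 3.42 and 9.56, and both were also among the members higher in endothelial barcodes. Cyp2ab1 had 20, 4, 6 and 0 UMIs. Cyp11b3 also passed, but 19 of its UMIs lay in 2 CS barcodes and 15 of those in 1. The count of 5 became 2 without CS, 3 without naive and 3 without NEVLPcty.

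**Figure D5:**
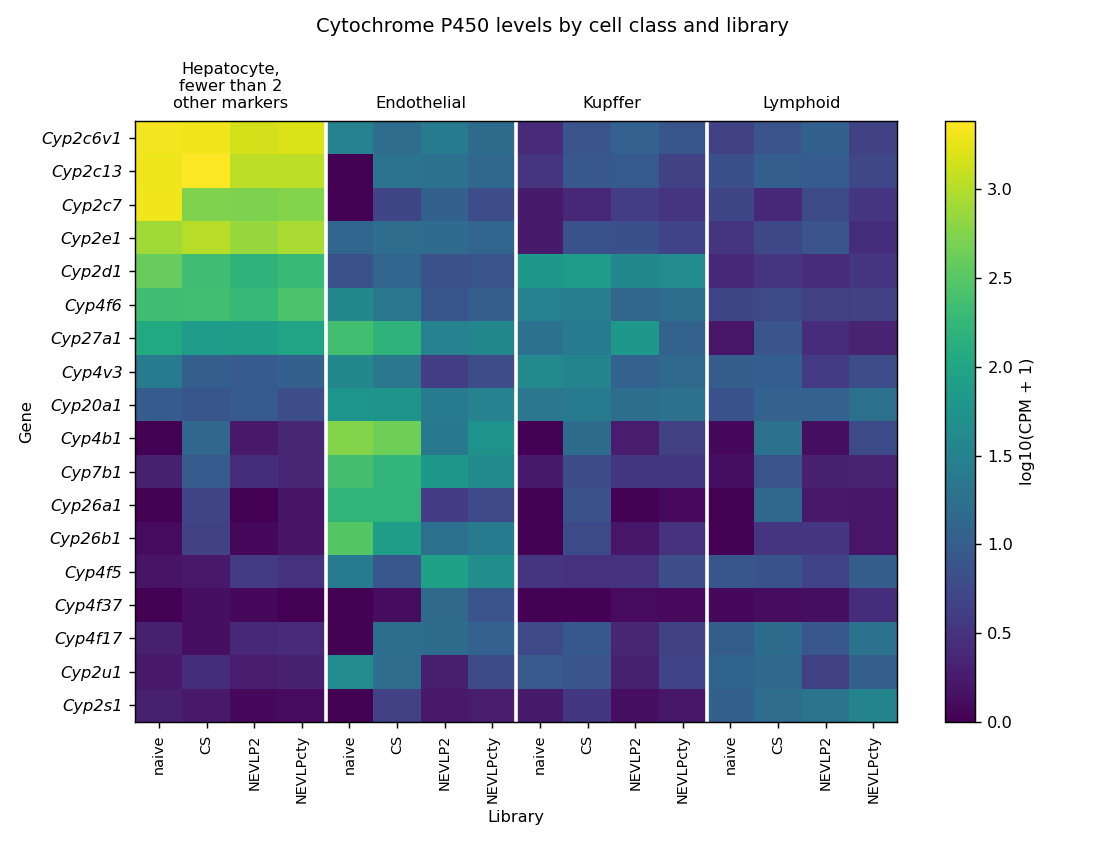
Heat map of 18 members by cell class and library, with colour for log10 of CPM plus 1. Cyp2c6v1 and Cyp2c7 lie highest in hepatocyte barcodes, Cyp26a1 and Cyp4b1 in endothelial barcodes, and Cyp2s1 in lymphoid barcodes.

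The rest of the members were sparse in filtered hepatocyte barcodes. Cyp2f4 was even, at 28.9, 30.3, 32.5 and 29.5 CPM. Cyp2j4 stood at 23.8, 14.3, 9.83 and 10.9 and Cyp2j10, like it an arachidonic acid epoxygenase, at 17.7, 11.8, 10.7 and 6.90. Cyp2t1 stood at 26.7, 16, 12.8 and 15.7. Cyp17a1, a steroid hydroxylase, had 10, 0, 9 and 10 UMIs, and Cyp2r1, a vitamin D 25-hydroxylase, had 3, 3, 9 and 3. Cyp4f18 had 6 UMIs in all, and Cyp1b1, Cyp27b1, Cyp2ab1, Cyp46a1 and Cyp11b3 had none.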

How the data were processed

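Per the labels' protocols, the authors ran the Cell Ranger pipeline and deposited filtered matrices of raw UMI counts per gene and barcode. The submitters' processing notes name Cell Ranger 2.1.1 and the file headers version 6.0.0. The genome build was not given in the sources used here. Rows of 1 symbol were summed. Barcodes were kept from 200 genes and 500 UMIs upwards, with a mitochondrial share up to 20%. They were classed by listed marker genes, of which none is a member. Doublets were kept, and an alternative removed the highest Scrublet scores (2.64% of naive barcodes and 8.15% to 9.29% in the other libraries). Between libraries there is no test. Ratios carry exact conditional binomial and levels exact Poisson 95% intervals, and a member at 0 was set to 3 UMIs. Members past 2-fold with at least 20 UMIs in both libraries together were counted. Cell classes and zones were compared by edgeR's quasi-likelihood test on counts summed per library and class (TMM, filterByExpr, library block, at least 10 barcodes, Benjamini-Hochberg adjustment over all genes), with DESeq2 as an alternative. Shares were taken after thinning to 1000 UMIs, with barcodes below that depth left out.

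Values in every library were planned for the 12 most abundant members, up to 15 called between libraries, those called by class or zone, and Cyp26a1. Other members were added after their values were seen, as were the comparison of endothelial barcodes between libraries, the fits with filtered hepatocyte barcodes and the scaling to hepatocyte markers. The members and gene lists were chosen with earlier results of these data known. Interval coverage was tested on simulated data. The tools were R 4.3.3, edgeR 4.0.16, DESeq2 1.42.0, scanpy 1.11.5, matplotlib 3.10.9, pandas 2.3.3, numpy 2.4.6, scipy 1.17.1 and Python 3.11.15. Promoter sequences are from RefSeq (GRCr8).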

Additional observations from a re-analysis of the deposited data

How the results depend on the processing

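With 1 library a group, depth limits mainly the naive endothelial barcodes (35) and the stellate barcodes, and intervals leave out variation between animals. No paired analysis was possible because each group is 1 library, and the fits by class and zone already hold the library as a block. Of 684 values of 58 results in hepatocyte barcodes, 332 stayed within the error, 349 moved and 3 reversed. Those 58 were only the ratios called in the same direction in both all and filtered hepatocyte barcodes. Calls lost on filtering are thus left out, and the filtered setting could not reverse any of the 58. Of 206 values in endothelial barcodes 164 stayed and 42 moved. By class 1152 of 1223 kept their call, 67 lost it and 4 reversed, and by zone 200 of 259 kept it, 55 lost it and 4 reversed. Causes were not tested.

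Members at least 2-fold lower in CS over naive (22) numbered 12 with all 4 hepatocyte markers required, 11 in filtered barcodes, 7 scaled to hepatocyte markers, 9 filtered and so scaled, and 11 filtered with at least 1000 UMIs. Those higher (9) numbered 4 filtered, 14 scaled to hepatocyte markers, 4 filtered and so scaled, and 4 filtered with at least 1000 UMIs. For NEVLP2 over naive, lower members (27) numbered 6 scaled to hepatocyte markers and 6 filtered and so scaled. Higher ones (6) numbered 2 with all 4 markers, 0 filtered, 2 filtered and scaled, and 1 filtered with at least 1000 UMIs. For NEVLPcty over naive, lower members (28) numbered 3 scaled and 5 filtered and scaled. Higher ones (11) numbered 5 with all 4 markers, 3 filtered, 4 filtered and scaled, and 3 filtered with at least 1000 UMIs.

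For NEVLP2 over CS, lower members (12) numbered 3 filtered and scaled to hepatocyte markers, and 6 filtered with at least 1000 UMIs. Higher ones (2) numbered 1 with all 4 markers, 8 with median-of-ratios size factors, 0 filtered and 0 filtered with at least 1000 UMIs. For NEVLPcty over NEVLP2, lower members (1) numbered 0 with all 4 markers, 2 with no barcode filter, 7 with median-of-ratios size factors, 0 at a minimum of 50 UMIs, 0 filtered, 0 by the mean of barcode levels, 2 without the highest Scrublet scores, 0 scaled to hepatocyte markers, 0 filtered and scaled, and 0 filtered with at least 1000 UMIs. Higher ones (7) numbered 4 at 50 UMIs, 12 scaled to hepatocyte markers and 4 filtered with at least 1000 UMIs. Members with both perfused libraries above both others (2) numbered 0 filtered, 8 scaled to hepatocyte markers and 8 filtered and so scaled, and those below (19) numbered 5 scaled and 5 filtered and scaled.

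In endothelial barcodes, lower members without barcodes holding a Kupffer or stellate marker numbered 2 in CS over naive (5), 4 in NEVLP2 over naive (12), 10 in NEVLPcty over naive (16) and 0 in NEVLPcty over NEVLP2 (1). With median-of-ratios size factors they numbered 10 in NEVLP2 over CS (16) and 6 in NEVLPcty over NEVLP2, and 0 in the latter with 4 markers required. Higher members with median-of-ratios size factors numbered 1 in CS over naive (0), 4 in NEVLP2 over naive (1), 1 in NEVLPcty over naive (0) and 9 in NEVLP2 over CS (3). In CS over naive they also numbered 1 with 4 markers and 1 with fewer than 2 hepatocyte markers, and in NEVLPcty over naive 1 with 4 markers, 1 with fewer than 2 hepatocyte markers and 1 without Kupffer or stellate markers.

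By class, members higher in endothelial than hepatocyte barcodes (1) numbered 3 with DESeq2, 3 with no filter on low counts, 0 with no library block, 9 against filtered hepatocyte barcodes, and 0 to 1 with a library left out (0 without NEVLP2 and 0 without NEVLPcty). Members lower in stellate barcodes (3) numbered 8 with DESeq2, 12 with no filter on low counts, 9 with no library block, 0 with fewer than 2 hepatocyte markers, 16 against filtered barcodes, and 0 to 16 with a library left out (9 without CS, 16 without naive, 0 without either perfused library). Higher ones (0) numbered 1 with no filter and 1 against filtered barcodes. Members higher in Kupffer barcodes (1) numbered 0 with DESeq2, 0 with no library block, 0 with 1 more marker, 0 with fewer than 2 hepatocyte markers, and 0 to 1 with a library left out (0 without CS, NEVLP2 or NEVLPcty). Members higher in lymphoid barcodes (5) numbered 3 with no library block, 2 with 1 more marker, 3 with fewer than 2 hepatocyte markers, and 2 to 4 with a library left out (2 without CS, 3 without naive, 3 without NEVLPcty).

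By zone, members lower pericentrally (22) numbered 1 with no library block and 6 filtered. Higher ones (5) numbered 8 with no filter on low counts, 1 with no library block, 2 with at least 2 UMIs of the zone markers, and 3 to 7 with a library left out (3 without NEVLPcty). Reversed log2 ratios in NEVLPcty over naive, scaled to hepatocyte markers, were those of Cyp2j10 (0.14), Cyp2j4 (0.32) and Cyp4v3 (0.040). Against filtered hepatocyte barcodes, reversed log2 folds were Cyp26a1 in lymphoid barcodes (0.48), Cyp26b1 (0.60), Cyp4b1 (0.18) and Cyp4f5 (0.60) in Kupffer barcodes, and Cyp2c11 (0.046), Cyp2c22 (0.35), Cyp2c6v1 (0.60) and Cyp8b1 (0.29) by zone.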
